A study of Mus musculus with 12 samples.

Results

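The cornified envelope genes described here were 40 rows of the deposited count table, taken by name. The list of names was drawn up with earlier results of these data known. They comprise every gene whose symbol begins with Lce and a digit, namely 13 Lce1 genes, 6 Lce3 genes and Lce6a, and 20 further envelope genes (Ivl, Lor, Kprp, Cnfn, Ppl, Evpl, Scel, Tgm1, Tgm3, Tgm5, Krtdap, Sbsn, Dmkn, Casp14, Asprv1, Cst6, Lypd3, Lypd5, Calm4 and Calml3). The table holds 25210 genes, of which 15316 had enough counts to be tested, and the 40 genes were all among the 15316. The libraries come from primary mammary organoids, small pieces of epithelium cultured in growth-factor-reduced Matrigel and minimal medium, taken from virgin FVB/N females of 8 to 11 weeks. Each culture was kept for 7 days in the vehicle DMSO or in 1, 1.5 or 3 µM of CHIR99021. This compound blocks GSK3, a kinase whose loss of activity turns on WNT signalling through β-catenin. No genetic change is named for any group. Per the study's design, 3 cultures from 3 animals were each split over the 4 treatments, which gives 12 libraries, 3 per treatment, and DMSO libraries that serve as the control for every dose. The sample titles also tag the libraries of cultures 1, 2 and 3 as med, min and max. The meaning of these tags is not given, and they cannot be told apart from culture.

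The cornified envelope is the insoluble protein shell that replaces the plasma membrane of a keratinocyte at the end of its differentiation in the epidermis. Scaffold proteins such as envoplakin, periplakin and involucrin are laid down first under the membrane, and loricrin, small proline-rich proteins and late cornified envelope (LCE) proteins are then cross-linked onto them by transglutaminases. Loricrin, involucrin and the Lce genes lie together on mouse chromosome 3 in the epidermal differentiation complex. Loricrin and the Lce genes mark the outermost living layers of skin and are not characteristic of the secretory epithelium of the mammary gland.

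Total counts per library were 10129264 to 24485855. All 14 listed markers of mammary epithelium were measured, with summed levels of 4673 to 8040 CPM in DMSO (CPM, the count relative to the library total as scaled by the TMM method) and 17275 to 34057 CPM at 3 µM. At 3 µM the basal markers Krt5, Krt14 and Trp63 were higher and 6 others, among them Krt8 and Krt18, lower. Of the skin markers, the pigment cell genes Tyr and Tyrp1 and the Langerhans cell gene Cd207 had at most 12 counts each over all libraries, and of 3 tested melanocyte markers 1 (Sox10) was higher at 3 µM. Markers of other cells of the gland moved with dose. Summed over 8 genes, fibroblast markers were 1631 to 20523 CPM in DMSO and 178 to 4572 CPM at 3 µM, with 1 of the 8 (Dpt) called lower. Of the markers tested, 6 of 6 for endothelium, 5 of 5 for adipocytes and 3 of 6 for macrophages (Csf1r, Mrc1 and Lyz2) were lower at 3 µM. The part of these shifts in the results below was not tested.

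The 40 genes took up a growing share of each library with dose. Together they held 0.0268%, 0.0151% and 0.0135% of all counts in the DMSO libraries of cultures 1, 2 and 3. At 1 µM the shares were 0.0703%, 0.0654% and 0.0354%. At 1.5 µM they were 0.396%, 0.399% and 0.172%, and at 3 µM 0.807%, 0.779% and 0.598%. No library overlapped with one of a lower dose, and culture 3 had the lowest share at each dose. With 3 libraries against 3, the exact two-sided unpaired permutation test of neighbouring doses (1.5 against 1 µM, 3 against 1.5 µM) gave p = 0.1, the smallest value an unpaired test of this size allows. In bulk RNA, more cells of a keratinizing type and more of these transcripts per cell cannot be told apart.

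**Figure D1:**
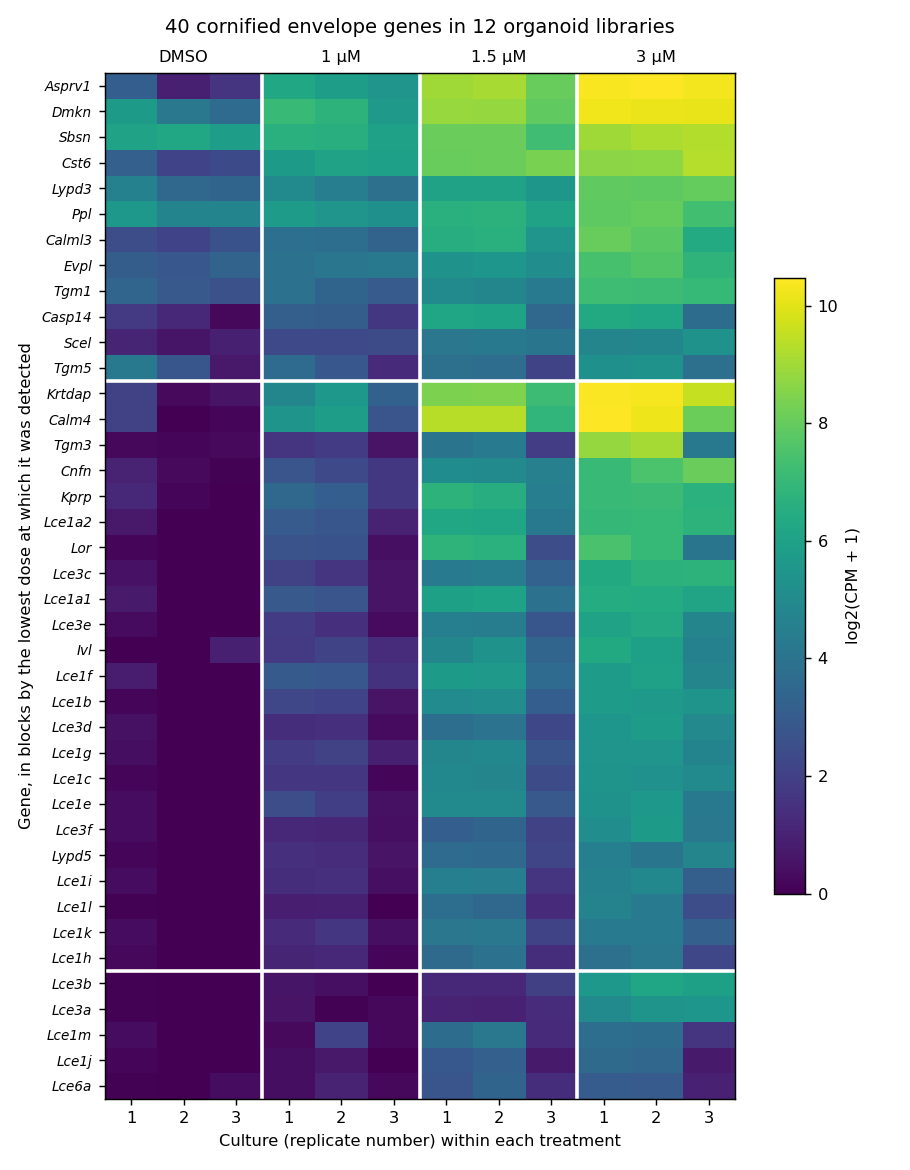
Level of each of the 40 genes (rows) in the 12 libraries (columns, cultures 1 to 3 within DMSO, 1, 1.5 and 3 µM CHIR99021), as log2(CPM + 1). White lines separate the treatments and the blocks of 12, 23 and 5 genes first detected in DMSO, at 1 µM and at 1.5 µM; the columns of culture 3 are darker, that is lower, than their neighbours for Lor, Casp14, Calm4 and Tgm3 at 3 µM.

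Against DMSO, genes were called with edgeR's quasi-likelihood test at a Benjamini-Hochberg adjusted p under 0.05 over all 15316 genes. At 1 µM 3 of the 40 were higher, against 0.189% of all genes tested. These were the cysteine protease inhibitor gene Cst6 (log2 change 3.44 ± 0.33 SE, adjusted p = 0.00358), the envelope scaffold gene Scel (2.21 ± 0.25, adjusted p = 0.0135) and the protease gene Asprv1 (3.94 ± 0.62, adjusted p = 0.0384). With the 3 cultures as a block in the fit, 23 members were higher at this dose, against 2.55% of all genes. At 1.5 µM 39 were higher (15.4% of all genes) and at 3 µM 39 (29.9%). Tgm5 was not called at either dose in the fit without the block. None of the 40 was called lower at 1, 1.5 or 3 µM, against 0.0522%, 11.8% and 27.7% of all genes, also at an unadjusted p under 0.05 (0 genes) and with DESeq2 (0 genes). The median log2 change of the 40 was 3.35 at 1 µM, 6.40 at 1.5 µM and 7.90 at 3 µM, while the medians over all genes tested were −0.005, −0.002 and −0.03. As 28 of the 40 reached the detection level only under CHIR99021, they entered the test through the groups in which they were high, and these counts and medians describe the genes without testing the set.

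The number of members called at 1 µM rested on single libraries. It was 5 without the DMSO library of culture 1, 1 without the DMSO library of culture 3 and 1 without the 1 µM library of culture 2. Of all genes, 37, 7 and 2 were higher in these settings. With culture 1, 2 or 3 left out of every group the number of members was 1, 0 and 17. The calls over all genes moved too: 29 genes were higher with all libraries, and 3, 0 and 92 without culture 1, 2 or 3 (965, 672 and 2320 in either direction at an unadjusted p under 0.05). At 1.5 µM, leaving out culture 2 from every group, which leaves 8 libraries, reduced the count from 39 members to 7, and leaving out culture 1 or 3 gave 29 and 39. Over all genes the number called higher fell from 2364 to 334 without culture 2, and was 866 and 2457 without culture 1 or 3. The same settings at 3 µM gave 36 members without culture 1, 35 without culture 2 and 40 without culture 3. Of all genes, 4574 were higher at 3 µM with all libraries, and 3479, 2771 and 4581 in these settings. Every one of the 40 was higher at 3 µM than in DMSO within each of the 3 cultures.

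Ordered by the lowest dose with at least 0.5 CPM in at least 2 of 3 libraries, the genes fell into 3 blocks. In DMSO 12 were already detected: Ppl, Evpl, Scel, Tgm1, Tgm5, Sbsn, Dmkn, Asprv1, Cst6, Casp14, Lypd3 and Calml3. At 1 µM 23 more appeared: Lor, Ivl, Kprp, Cnfn, Tgm3, Krtdap, Calm4, Lypd5, 11 of 13 Lce1 genes and 4 of 6 Lce3 genes. The last 5 were first detected at 1.5 µM: Lce1j, Lce1m, Lce3a, Lce3b and Lce6a. No Lce gene was thus detected in DMSO, whereas 3 of the 4 scaffold genes were. The border between the last blocks depended on the 1 µM libraries of cultures 1 and 2: without either of them, 8 members were first detected at 1 µM and 20 at 1.5 µM, and the same held nearly for a rule that needs all 3 libraries (9 and 20).

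The DMSO library of culture 1 stood apart at these low levels. It held counts for 39 of the 40 genes, all but Ivl, while 24 genes were at 0 in the DMSO library of culture 2 and 22 in that of culture 3. All 19 Lce1 and Lce3 genes had counts in the first and 0 in the others. A count of 0 allows up to 0.304 CPM in the library of culture 2 and 0.161 CPM in that of culture 3, which covers counting error only. Its summed level for the 13 Lce1 genes was 4.09 CPM, against 38.9, 39.2 and 6.19 CPM in the 1 µM libraries of cultures 1, 2 and 3. For 8 genes the 3 DMSO libraries held 3 counts or fewer together, and folds given for such genes are ratios of the pooled counts of the 3 libraries, scaled by their summed library sizes, with an exact 95% counting interval.

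Loricrin (Lor), the most abundant protein of the epidermal envelope, was at 0.133, 0 and 0 CPM in the DMSO libraries of cultures 1, 2 and 3. It reached 5.43, 5.16 and 0.341 CPM at 1 µM, 111, 103 and 4.63 CPM at 1.5 µM, and 175, 130 and 15.8 CPM at 3 µM. At each dose of CHIR99021 culture 3 was the low library, and at 1.5 µM it lay below both other cultures' 1 µM values. Lor was called higher at 1.5 µM (log2 change 10.13 ± 1.99 SE, edgeR adjusted p = 0.00516) and at 3 µM (10.68 ± 2.0, adjusted p = 0.00126). On its 3 DMSO counts, the ratio of pooled counts at 3 µM was 1777 (counting interval 608 to 8622). From 1.5 to 3 µM it changed by 0.55 ± 1.08 on the log2 scale (adjusted p = 0.731), although it was higher at 3 µM in all 3 cultures and passed with the block (adjusted p = 0.0148).

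Cornifelin (Cnfn), an envelope component, followed another course. Its level was 0.977, 0.203 and 0.0538 CPM in DMSO, 33.5, 30.4 and 22.3 CPM at 1.5 µM and 132, 181 and 272 CPM at 3 µM. The 3 µM libraries lay above all 1.5 µM libraries, and here culture 3 was the highest. Cnfn rose from 1.5 to 3 µM by 2.76 ± 0.48 (log2, edgeR adjusted p = 0.00279). The keratinocyte proline-rich protein gene Kprp was 107, 92.0 and 21.5 CPM at 1.5 µM and 135, 141 and 103 CPM at 3 µM. Its step between these doses was 0.78 ± 0.72 (adjusted p = 0.439), and the groups overlapped.

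Among the Lce genes, the 3 with the most counts were Lce1a2, Lce1a1 and Lce3c. Lce1a2 was 0.622, 0 and 0 CPM in DMSO, 7.05, 5.94 and 1.02 CPM at 1 µM, 76.7, 72.9 and 17.9 CPM at 1.5 µM, and 125, 127 and 108 CPM at 3 µM. Lce1a1 was 0.71, 0 and 0 CPM in DMSO, 6.60, 5.79 and 0.454 CPM at 1 µM, 60.9, 66.9 and 13.8 CPM at 1.5 µM, and 88.3, 85.9 and 68.0 CPM at 3 µM. In both genes cultures 1 and 2 at 1.5 µM were well past 50% of their 3 µM level, and culture 3 was not. Lce3c was 0.444, 0 and 0 CPM in DMSO, 3.10, 1.95 and 0.454 CPM at 1 µM, 18.9, 20.4 and 8.80 CPM at 1.5 µM, and 80.2, 106 and 109 CPM at 3 µM. All 3 of its 3 µM libraries were far above the 1.5 µM ones. Against DMSO at 3 µM, the log2 changes were 8.80 ± 1.08 for Lce1a2, 8.06 ± 1.22 for Lce1a1 and 8.98 ± 0.91 for Lce3c (edgeR adjusted p = 9.69e-05, 0.000344 and 3.07e-05).

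Lce6a stayed low. It was 0.0444, 0 and 0.269 CPM in DMSO, 0.304, 1.07 and 0.17 CPM at 1 µM, 5.79, 9.41 and 1.56 CPM at 1.5 µM and 7.21, 6.99 and 0.965 CPM at 3 µM. Its mean at 1.5 µM was 111% of that at 3 µM, and its level was lower at 3 µM than at 1.5 µM in cultures 2 and 3. Over the 20 Lce genes, mean levels at 3 µM ran from 5.05 CPM (Lce6a) to 119.7 CPM (Lce1a2).

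The step from 1.5 to 3 µM separated the Lce1 from the Lce3 genes. Of the 13 Lce1 genes 0 were called higher, with log2 changes from −0.18 to 1.1 and a median of 0.59. At an unadjusted p under 0.05 the count was also 0, and with DESeq2 it was 0. Of the 6 Lce3 genes 4 were called (Lce3a, Lce3b, Lce3c and Lce3f), with changes from 1.82 to 5.10 over the 6 genes and a median of 2.48. The edgeR adjusted p was 0.0612 for Lce3d and 0.0846 for Lce3e. Over all 40 genes 14 rose at this step, against 17.0% of all genes tested. None fell, against 12.7% (0 also at an unadjusted p under 0.05 and with DESeq2). The median of the 40 was 1.09 and that of all genes −0.003. With the block 26 of the 40 were called (24.7% of all genes), among them 5 of 13 Lce1 and 6 of 6 Lce3 genes. Without culture 1 or culture 2 in every group, the count of members was 7 and 2, while that of all genes called higher went from 2601 to 608 and 196. The genes' separation was noticed in these data, and the shares of counts given below restate it. Apart from a test of those shares, which cannot decide the question, the families were not tested against each other.

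Lce3a and Lce3b, singled out after their values were seen, had the largest log2 changes of the Lce genes at this step. Lce3b was 0.0444, 0 and 0 CPM in DMSO, 0.507, 0.341 and 0 CPM at 1 µM, 1.34, 1.27 and 3.01 CPM at 1.5 µM, and 47.4, 73.0 and 61.5 CPM at 3 µM. Lce3a was 1.02, 0.921 and 1.51 CPM at 1.5 µM and 31.6, 42.1 and 44.6 CPM at 3 µM. The 3 µM libraries were close together for both genes and culture 3 was not low. Lce3b rose by 5.02 ± 0.59 (log2, edgeR adjusted p = 0.000453) and Lce3a by 5.10 ± 0.48 (adjusted p = 0.000164) between the 2 doses. At 1.5 µM their mean levels were 3.09% and 2.91% of those at 3 µM.

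Relative to its own culture at 3 µM, each Lce1 gene had reached at least 50% by 1.5 µM in cultures 1 and 2 (13 of 13 in each), with medians of 69.0% and 76.2%. No Lce3 gene had (0 of 6 in each), with medians of 22.9% and 18.8%. In culture 3 the medians were 31.8% for Lce1 and 10.4% for Lce3, and 2 Lce1 genes were past 50%. The medians thus had the same order in each culture. In culture 3 the families overlapped, with 14.5% to 100.7% for Lce1 and 3.37% to 22.3% for Lce3. Over the 40 genes, 18 had a mean at 1.5 µM of at least 50% of that at 3 µM, including 12 of 13 Lce1 genes, 0 of 6 Lce3 genes, Lce6a and 5 of the 20 others (Lor, Kprp, Casp14, Cst6 and Scel). Seen at 1 µM, every gene was at 21.3% or less of its 3 µM mean.

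**Figure D2:**
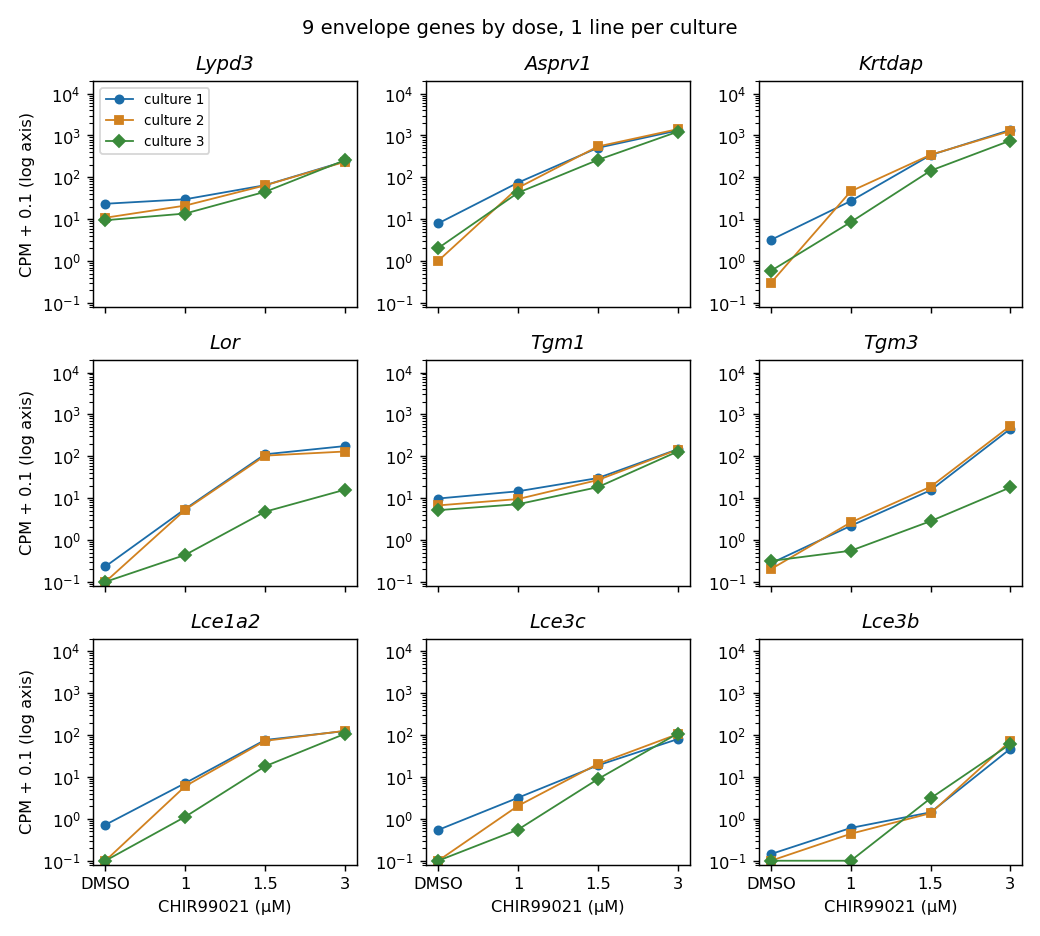
CPM + 0.1 (log axis) of 9 genes against the dose of CHIR99021, with 1 line and symbol per culture. Lce1a2 and Lor flatten between 1.5 and 3 µM in cultures 1 and 2, Tgm3 takes its steepest step there in all cultures and Lce3b in cultures 1 and 2, and culture 3 (green) ends low for Lor and Tgm3 and level with the others for Lypd3, Lce3c and Lce3b.

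The same is seen in the share of Lce3 counts among all Lce1 and Lce3 counts. It was 19.6%, 15% and 18.7% at 1 µM in cultures 1, 2 and 3, then 14.0%, 14.4% and 25.1% at 1.5 µM, and 35.5%, 42.1% and 45.6% at 3 µM. The shares at 1 and 1.5 µM overlapped, and those at 3 µM lay above both. From 1.5 to 3 µM the mean went from 17.8% ± 6.3 to 41.1% ± 5.1 (SD, n = 3 each), and the share rose in each culture. The exact two-sided unpaired permutation test gave p = 0.1, the smallest an unpaired test of 3 against 3 allows. The share was chosen after the split had been seen in these values, and the test ignores that the cultures are shared. No conclusion is drawn from it. From 1 to 1.5 µM the mean share went from 17.7% to 17.8% (p = 1 in the same exact test). Without Lce3a and Lce3b, the other 4 Lce3 genes made up 13.6% to 21.7% at 1.5 µM and 28.9% to 34.6% at 3 µM.

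**Figure D3:**
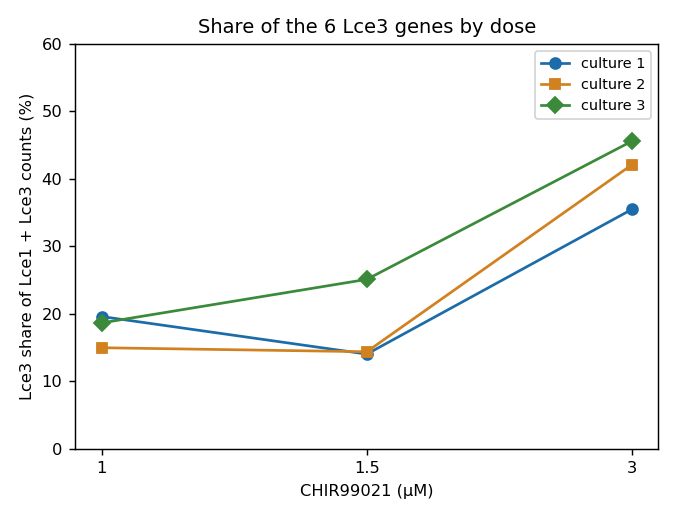
Share (percent) of the counts of the 6 Lce3 genes among the counts of the 13 Lce1 and 6 Lce3 genes, by dose and culture; each line is 1 culture. The shares lie between 14.0% and 25.1% at 1 and 1.5 µM and between 35.5% and 45.6% at 3 µM.

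On chromosome 3 the Lce1 and Lce3 genes do not alternate (deposited coordinates, GRCm38). Lor lies at chr3:92080271-92083142, Ivl at chr3:92570912-92573715 and Lce6a at chr3:92620081-92621660. From Lce1a1 (chr3:92646532-92648307) to Lce1l (chr3:92849949-92851286) follow 12 Lce1 genes, with Kprp among them. The 6 Lce3 genes run from Lce3a (chr3:92925291-92926230) to Lce3f (chr3:92992226-92993425), and Lce1m (chr3:93017807-93019060) lies beyond them. Lce1m, named after its values were seen, changed by −0.18 ± 1.15 (log2, edgeR adjusted p = 0.92) from 1.5 to 3 µM, while its neighbour Lce3f rose by 2.34 ± 0.65 (adjusted p = 0.0221). Lce1m was 12.0, 17.2 and 1.45 CPM at 1.5 µM and 12.8, 12.2 and 2.07 CPM at 3 µM. Its estimate lay below those of the 6 Lce3 genes, but its SE was wide and the difference was not tested.

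**Figure D4:**
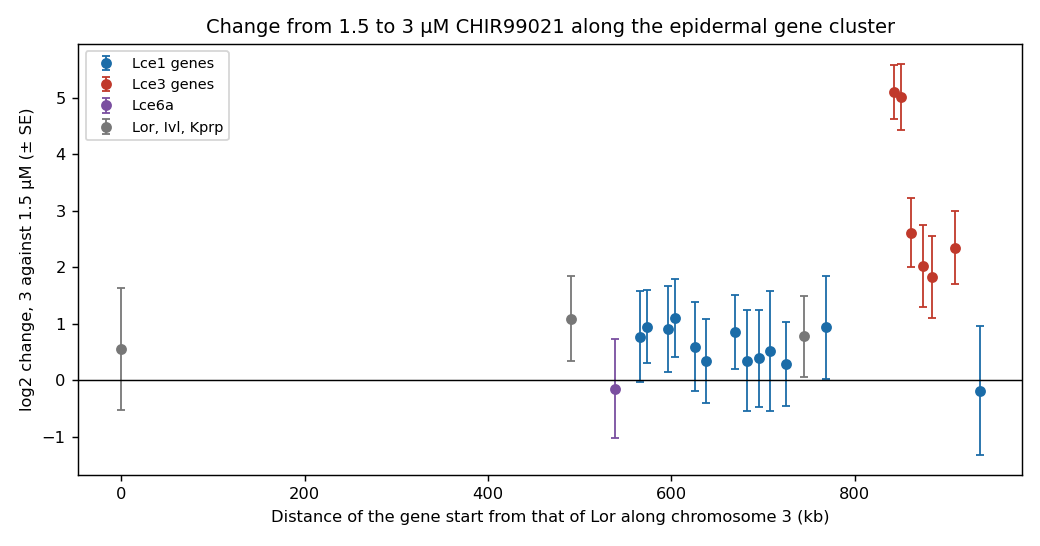
Log2 change from 1.5 to 3 µM (± SE, edgeR) against the distance of each gene's start from that of Lor in kb, for the members on chromosome 3. The 6 Lce3 genes (red) lie between 1.82 and 5.10, the 13 Lce1 genes (blue) between −0.18 and 1.1, including Lce1m at the far right.

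Since these genes moved together, the bases before the start of 6 of them are printed, as RefSeq gives them for GRCm38.p6, to let their promoters be compared: the Lce1 gene and the Lce3 gene with the most counts (Lce1a2 and Lce3c), an Lce3 gene with a steep last step (Lce3b), loricrin, and the strongest secreted and cross-linking genes (Krtdap and Tgm3). Each is the 120 bases upstream of the start, 5′ to 3′ on the gene's strand. The windows are chr3:92670316-92670435 (minus strand) for Lce1a2, chr3:92944366-92944485 (plus) for Lce3c, chr3:92932859-92932978 (plus) for Lce3b, chr3:92083143-92083262 (minus) for Lor, chr7:30787785-30787904 (plus) for Krtdap and chr2:130012220-130012339 (plus) for Tgm3. Capitals mark the TATA box TATAAA, its variant ATAAAA and the AP-1 motif TGANTCA.
Lce1a2: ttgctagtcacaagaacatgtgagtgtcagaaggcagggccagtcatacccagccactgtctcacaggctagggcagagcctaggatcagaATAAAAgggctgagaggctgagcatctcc
Lce3c: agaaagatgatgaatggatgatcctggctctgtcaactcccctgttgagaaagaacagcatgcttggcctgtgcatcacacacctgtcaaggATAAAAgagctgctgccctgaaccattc
Lce3b: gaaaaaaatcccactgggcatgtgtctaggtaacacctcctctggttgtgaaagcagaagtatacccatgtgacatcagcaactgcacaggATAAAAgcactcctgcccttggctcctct
Lor: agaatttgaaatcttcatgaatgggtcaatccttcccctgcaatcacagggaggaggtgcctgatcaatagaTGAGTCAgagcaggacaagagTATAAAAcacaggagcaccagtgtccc
Krtdap: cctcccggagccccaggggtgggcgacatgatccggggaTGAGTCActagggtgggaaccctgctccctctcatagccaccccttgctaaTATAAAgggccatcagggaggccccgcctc
Tgm3: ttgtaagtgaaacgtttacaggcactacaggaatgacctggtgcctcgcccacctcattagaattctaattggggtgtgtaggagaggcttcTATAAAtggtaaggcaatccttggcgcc

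Of the 40 genes 34 had an entry in the RefSeq promoter table, which spans 250 bases before to 50 after each start. TATAAA, read on both strands, was found in 7 of the 34, against 13.0% of 27025 promoters, and ATAAAA in 21 of the 34, against 17.6%. The motifs overlap in TATAAAA, and ATAAAA was added after the sequences had been seen. Between positions −40 and −20, 17 of the 34 held ATAAAA, against 1.93% of all promoters. These were 11 of 12 Lce1 genes, 5 of 6 Lce3 genes and Lor. TATAAA in that stretch was in 5 of the 34 (Ivl, Krtdap, Lce1m, Lor and Tgm3), against 2.22% of all. The AP-1 motif TGANTCA, the consensus site of JUN and FOS dimers, was in 6 of the 34 (Dmkn, Ivl, Krtdap, Lor, Sbsn and Scel), against 6.87% of all. It was in 0 of 12 Lce1 and 0 of 6 Lce3 promoters. The TCF/LEF motif CTTTGNT was in 5 of the 34, against 16.1% of all, and in 0 Lce1 and 0 Lce3 promoters. The other motifs searched were C/EBP (TTGCNNAA) in 5 of the 34, against 9.55% of all, and KLF (GGGNGTGG) in 3, against 15.8%. The CCAAT box was in 6, against 34.5%, and GRHL (AACCNGTT) in 0, against 1.71%. Lce genes are paralogs of each other, so these are not separate observations. The 150 bases before the start were aligned in pairs, with gaps allowed. The median identity was 69.7% between Lce1 genes, 70.7% between Lce3 genes and 61.3% between the families. Unrelated promoters were not aligned, so these values have no baseline. A motif match here is only a match of letters.

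Of the 4 scaffold genes, 3 were detected before treatment. Periplakin (Ppl), a plakin that links the envelope to keratins, was 46.4, 25.8 and 25.1 CPM in DMSO, 53.5, 43.5 and 37.6 CPM at 1 µM, 97.8, 104 and 65.2 CPM at 1.5 µM and 231, 252 and 156 CPM at 3 µM. Its partner envoplakin (Evpl) was 7.55, 6.09 and 9.10 CPM in DMSO, 13.9, 16.2 and 17.7 CPM at 1 µM, 39.8, 44.5 and 33.9 CPM at 1.5 µM and 170, 198 and 112 CPM at 3 µM. From 1.5 µM on, no treated library of either gene overlapped with DMSO. At 3 µM Ppl had risen by 2.71 ± 0.30 and Evpl by 4.39 ± 0.24 on the log2 scale (edgeR adjusted p = 5.04e-05 and 1.58e-06).

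Sciellin (Scel) was 1.11, 0.507 and 0.915 CPM in DMSO, 4.01, 3.94 and 4.31 CPM at 1 µM, 16.8, 18.0 and 15.9 CPM at 1.5 µM and 26, 26.8 and 39.4 CPM at 3 µM. No doses overlapped, and culture 3 was the highest at 3 µM. Involucrin (Ivl), the early scaffold that carries many cross-links, was 0, 0 and 0.915 CPM in DMSO, 2.44, 3.41 and 1.53 CPM at 1 µM, 27.0, 40.7 and 9.73 CPM at 1.5 µM and 81.4, 59.8 and 23.5 CPM at 3 µM. Ivl was the only one of the 40 with no count in the DMSO library of culture 1, and the 17 counts it had in DMSO were all in culture 3. It rose by 7.34 ± 1.08 at 3 µM (edgeR adjusted p = 0.00029).

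The 3 transglutaminases, which make the cross-links, differed from one another. Tgm1, the membrane-bound enzyme of the epidermis, was 9.68, 6.60 and 5.06 CPM in DMSO, 14.5, 9.40 and 7.04 CPM at 1 µM, 30.0, 26.9 and 18.2 CPM at 1.5 µM and 147, 144 and 130 CPM at 3 µM. It rose by 1.81 ± 0.31 at 1.5 µM (edgeR adjusted p = 0.00251) and by a further 2.49 ± 0.30 from 1.5 to 3 µM (adjusted p = 0.000542). The 1 µM libraries overlapped with DMSO.

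Tgm3, an enzyme of late epidermal and hair follicle differentiation, was 0.178, 0.101 and 0.215 CPM in DMSO, 2.08, 2.53 and 0.454 CPM at 1 µM, 15.3, 18.6 and 2.72 CPM at 1.5 µM and 454, 534 and 18.0 CPM at 3 µM. The last group split: culture 3 at 3 µM sat at the level that cultures 1 and 2 had at 1.5 µM. Tgm3 rose from 1.5 to 3 µM by 4.77 ± 1.11 (log2, edgeR adjusted p = 0.0107). Tgm5 was 17.9, 5.89 and 0.646 CPM in DMSO, 11.8, 6.18 and 1.48 CPM at 1 µM, 13.7, 12.4 and 3.47 CPM at 1.5 µM and 37.5, 39.9 and 13.7 CPM at 3 µM. Here the spread between cultures at one dose was wider than the step between doses, and DMSO overlapped with 3 µM. Tgm5 was the only one of the 40 not called at 3 µM (1.88 ± 1.02, adjusted p = 0.136), but it was higher there in all 3 cultures and passed with the block (adjusted p = 0.00167).

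Krtdap, Sbsn and Dmkn encode secreted proteins of stratified epithelia and lie side by side on chromosome 7 (from chr7:30734739-30756134 for Sbsn to chr7:30787896-30791097 for Krtdap). Sbsn was 63.7, 73.4 and 58.1 CPM in DMSO and 508, 584 and 610 CPM at 3 µM. Dmkn was 51.5, 17.3 and 11.8 CPM in DMSO and 1203, 1144 and 1116 CPM at 3 µM. Krtdap was 3.11, 0.203 and 0.484 CPM in DMSO, 27.1, 46.4 and 8.46 CPM at 1 µM, 341, 346 and 145 CPM at 1.5 µM and 1364, 1285 and 758 CPM at 3 µM. The neighbours thus began at different levels, with Sbsn high and even across the DMSO libraries and Krtdap near the detection limit, and no DMSO library overlapped with 3 µM. At 3 µM the log2 changes were 3.13 ± 0.25 for Sbsn, 5.42 ± 0.63 for Dmkn and 9.64 ± 1.03 for Krtdap (edgeR adjusted p = 7.4e-06, 6.66e-05 and 4.05e-05). Per length, Krtdap had the highest level of the 40 at 3 µM, 4395 TPM (transcripts scaled to length and library), followed by Calm4 (2674 TPM), Asprv1 (2277 TPM) and Dmkn (1407 TPM).

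The protease and inhibitor genes held 2 of the 3 calls at 1 µM. Asprv1, a protease that processes filaggrin, was 7.86, 0.913 and 1.94 CPM in DMSO, 74.7, 56.2 and 42.8 CPM at 1 µM, 508, 546 and 261 CPM at 1.5 µM and 1317, 1416 and 1233 CPM at 3 µM. Cst6, which inhibits cathepsins acting on the cross-linking pathway, was 8.30, 3.25 and 4.09 CPM in DMSO, 50.4, 65.1 and 58.5 CPM at 1 µM, 262, 272 and 324 CPM at 1.5 µM and 397, 416 and 626 CPM at 3 µM. In both genes each dose lay wholly above the one before it. Casp14, the caspase of cornification, was 2.40, 1.22 and 0.161 CPM in DMSO, 8.07, 7.5 and 2.27 CPM at 1 µM, 69.7, 65.7 and 10.7 CPM at 1.5 µM and 80.6, 71.9 and 12.1 CPM at 3 µM. Its step from 1.5 to 3 µM was small in each culture (0.17 ± 0.87, edgeR adjusted p = 0.901), and culture 3 was the low library at every dose.

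The LY6/uPAR surface protein genes started apart. Lypd3, a surface protein of suprabasal keratinocytes, was 23.3, 10.8 and 9.36 CPM in DMSO, 29.9, 21.1 and 13.6 CPM at 1 µM, 64.9, 64.3 and 45.2 CPM at 1.5 µM and 242, 235 and 257 CPM at 3 µM. Lypd5 was 0.0888, 0 and 0 CPM in DMSO, 1.62, 1.51 and 0.454 CPM at 1 µM, 11.5, 10.8 and 3.53 CPM at 1.5 µM and 22.2, 16.0 and 26.3 CPM at 3 µM. Both were called higher at 1.5 and 3 µM, and Lypd3 rose again from 1.5 to 3 µM (2.07 ± 0.36, edgeR adjusted p = 0.00272). On 2 DMSO counts, the ratio of pooled counts for Lypd5 at 3 µM was 543 (counting interval 150 to 4493).

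Of the calmodulin-like genes, which encode calcium-binding proteins of keratinocytes, Calml3 was 4.62, 3.35 and 5.22 CPM in DMSO, 13.0, 12.9 and 9.20 CPM at 1 µM, 91.0, 99.3 and 43.1 CPM at 1.5 µM and 262, 218 and 84.6 CPM at 3 µM. Calm4 was 3.02, 0 and 0.108 CPM in DMSO, 42.2, 56.4 and 5.73 CPM at 1 µM, 643, 656 and 117 CPM at 1.5 µM and 1411, 1172 and 273 CPM at 3 µM. Both had their lowest treated values in culture 3, and Calm4 the wider gap. At 3 µM Calml3 was higher than in DMSO by 5.40 ± 0.50 and Calm4 by 9.61 ± 1.54 (log2, edgeR adjusted p = 1.7e-05 and 0.000494).

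Between 1 and 1.5 µM 22 of the 40 genes rose, against 4.43% of all genes tested, with a median of 3.09 on the log2 scale over the 40. All 40 were higher at 1.5 µM within each culture, and 37 had all 3 libraries above all 3 at 1 µM (19.3% of all genes). With the block 39 members were called, all but Tgm5 (11.3% of all genes). The count of 22 without the block moved when libraries were left out, and so did that over all genes. It was 13 without the DMSO library of culture 2, 7, 2 and 5 without the 1 µM library of culture 1, 2 or 3, 4 and 5 without the 1.5 µM library of culture 1 or 2, and 9 and 10 without the 3 µM library of culture 1 or 2. Without culture 1 or culture 2 in every group edgeR called 0, and likewise 0 of all genes tested (2105 and 1591 of them at an unadjusted p under 0.05). Over all genes, 679 were higher with all libraries and 117 to 199 without 1 library of the 1 µM group or the 1.5 µM libraries of cultures 1 or 2. The number was 496 without the DMSO library of culture 2, and 437 and 574 without the 3 µM library of culture 1 or 2.

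Cultures differed beyond dose, and the tags med, min and max of the titles cannot be told apart from them. In an F test of the culture term in edgeR's fit with dose and culture, 22 of the 40 genes passed, against 28.8% of all genes tested. In each of the 22 culture 3 was the lowest of the 3 libraries at 3 µM. Without the 1.5 µM library of culture 3, 14 members passed. Lor (adjusted p = 0.000127), Casp14 (0.000207) and Lce1j (0.000563) had the lowest values. By family 9 of 13 Lce1, 3 of 6 Lce3, Lce6a and 9 of the 20 others passed.

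At 3 µM the level in culture 3 ran from 0.0364 times (Tgm3) to 1.73 times (Cnfn) the mean of cultures 1 and 2, with a median of 0.595 over the 40 genes. Culture 1 against culture 2 ran only from 0.649 to 1.39 times. Below 0.25 lay Tgm3, Lce1j (0.0654), Lor (0.104), Lce6a (0.136), Casp14 (0.159), Lce1m (0.165), Lce1l, Calm4 (0.211) and Lce1h. Above 1 lay Cnfn, Cst6 (1.54), Scel (1.49), Lypd5 (1.38), Lce3a (1.21), Lce3c (1.18), Sbsn, Lypd3 and Lce3b. The late genes were therefore on both sides: culture 3 was the lowest library at 3 µM for 13 of 13 Lce1 genes and for 3 of 6 Lce3 genes. Over the 40 it was the lowest for 31 at 3 µM (42.8% of all genes tested) and for 37 at 1.5 µM (40.6%). Fibroblast markers ran the other way between cultures: their sum was 178, 980 and 4572 CPM in cultures 1, 2 and 3 at 3 µM, and 1631, 7382 and 20523 CPM in DMSO. Of the 14 mammary epithelium markers, Krt5, Krt14 and Trp63 were called higher at 3 µM than in DMSO and 6 were called lower. The sum of the 14 was 31206, 34057 and 17275 CPM in cultures 1, 2 and 3 at 3 µM, lowest in culture 3. The part of these differences in the ratios was not tested.

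**Figure D5:**
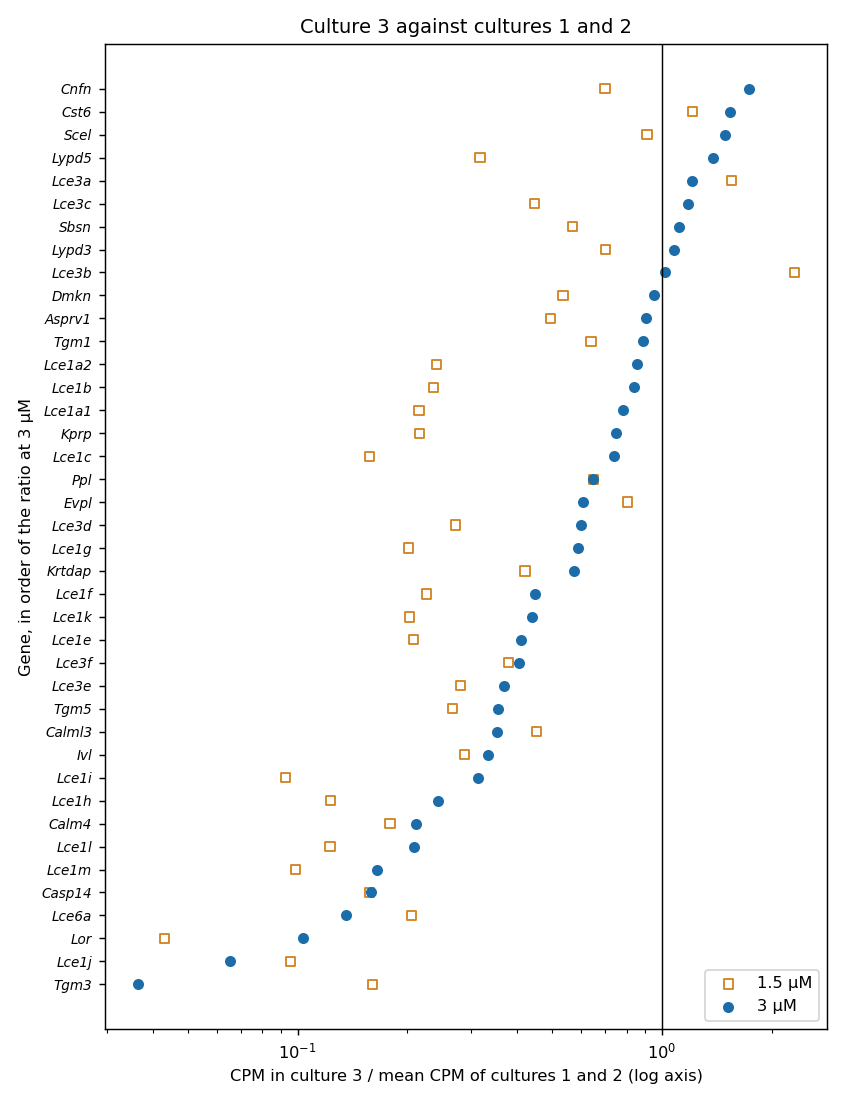
CPM in culture 3 divided by the mean CPM of cultures 1 and 2 (log axis) for each of the 40 genes, at 1.5 µM (open squares) and 3 µM (filled circles), in order of the ratio at 3 µM. The circles run from 0.0364 (Tgm3) to 1.73 (Cnfn), and most squares lie left of their circles.

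Other genes of the same process, taken from lists of what the envelope is built with, are given beside them. Of 43 listed partners of the envelope (small proline-rich proteins, filaggrin family, suprabasal keratins, desmosome and related genes), 36 were tested. Higher than in DMSO were 3 of them at 1 µM, 32 at 1.5 µM and 35 at 3 µM in edgeR's test. At 1 µM the block gave 16 higher and 1 lower (390 and 469 of all genes tested), and DESeq2 20 higher (328 of all genes). Of the 36, 0 were called lower at each dose, with 1, 1 and 0 at an unadjusted p under 0.05. DESeq2 called 1 lower, at 1.5 µM. Over all genes tested edgeR called 0.189%, 15.4% and 29.9% higher and 0.0522%, 11.8% and 27.7% lower at the 3 doses. The values that follow are those of the partners. Their median log2 changes were 3.19, 5.87 and 8.88. The most counted were Krt10, a suprabasal keratin, and Dsp, the desmosome's plakin. Krt10 was 9.81, 3.55 and 4.09 CPM in DMSO, 1714, 1773 and 468 CPM at 1.5 µM and 8790, 6583 and 154 CPM at 3 µM. Culture 3 was thus lower at 3 µM than at 1.5 µM for Krt10, and lowest of the 3 as for Tgm3 and Lor. Dsp was 569, 286 and 326 CPM in DMSO and 4098, 3912 and 3565 CPM at 3 µM, with the cultures close together.

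Of 22 listed regulators of terminal differentiation, all tested, 9 were higher and 2 lower at 1.5 µM, and 15 higher and 3 lower at 3 µM. Over all genes tested 15.4% were higher and 11.8% lower at 1.5 µM, and 29.9% and 27.7% at 3 µM. At 1 µM edgeR called 0 of the 22. At an unadjusted p under 0.05, 5 of them were higher and 2 lower, and DESeq2 called 2 higher. With the block 5 of the 22 were higher and 1 lower at 1 µM, and 12 higher and 4 lower at 1.5 µM. Of all 15316 genes the block gave 390 higher and 469 lower at 1 µM, and 3420 and 3726 at 1.5 µM. The median log2 change of the 22 was 0.24, then 0.49 and 1.22. Trp63, a transcription factor of the epidermal programme, was 104, 51.7 and 50.1 CPM in DMSO, 117, 76.6 and 59.0 CPM at 1 µM, 160, 132 and 115 CPM at 1.5 µM and 488, 405 and 424 CPM at 3 µM. It rose by 0.98 ± 0.31 at 1.5 µM (edgeR adjusted p = 0.0414) and 2.68 ± 0.33 at 3 µM (adjusted p = 9.51e-05). At 3 µM culture 3 lay between the other cultures for Trp63.

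Several values carry a limit of counting. The Lce genes resemble each other: of all stretches of 50 bases in a gene's transcripts, 0% to 27.1% (median 19.9%) in Lce1 genes and 12.1% to 49.3% (median 39.7%) in Lce3 genes were also present in another gene's transcripts, most in Lce3d, Lce3f and Lce3e. Lce1m, Lce6a and Lor shared none. The sources used here do not give the handling of reads that match more than one gene, which makes a single Lce gene's level less certain than the sum of its family. In the deposited coordinates Lce1a2 (chr3:92668613-92687210) spans Lce1c and the promoter stretch printed above, Sbsn overlaps with Gapdhs, C630016N16Rik and Gm26935, and Lypd3 with Gm26550. In GENCODE M21 Lypd3, Tgm1, Tgm3 and Tgm5 lie across from a gene on the other strand. Exons of Sbsn overlap there with those of Tmem147os on the same strand. Of the stretches of 50 bases in Sbsn, 6.96% were also present in another gene's transcripts, the most outside the Lce genes. The libraries were stranded, but the strand setting of the counting is not stated.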

How the data were processed

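RNA from 12 organoid libraries was measured by polyadenylated, stranded RNA sequencing (HiSeq 2500, per the labels' protocols). The authors deposited raw whole-number counts per gene. The submitters' processing notes name TopHat2 2.1, Bowtie 1.1.0, HTSeq, DESeq2 and GRCm38/mm10, without role or order. A second deposited table holds log2 values that the authors made from these counts after scaling libraries to a common total and adding 1 (recomputed here, 0 values differed by more than 1e-06). It was not used further. All rows carry an Ensembl gene identifier; 4 have no symbol and none of these is a member. Totals were 10129264 to 24485855 counts per library, which sets the detection limits given in the text.

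Counts were fitted with edgeR 4.0.16 (R 4.3.3, limma 3.58.1): filterByExpr on the 4 groups, TMM scaling, robust quasi-likelihood with group means and no block, two-sided tests, and Benjamini-Hochberg adjustment over 15316 genes. The standard error is the log2 change divided by the root of F. The fit was also run on simulated counts drawn without differences between cultures. That run cannot show how the fit without a block performs when cultures differ, as they did here. TPM used exon lengths of GENCODE M21. Alternatives were DESeq2 1.42.0, other scaling, no filter, only 2 groups, thinned counts, each library or culture left out, and the replicate block. The numbers pair the samples, because per the study's design the same number is the same animal. Deviations from group means correlated by 0.177 to 0.840 for 18 same-number pairs (median 0.505) and by −0.728 to 0.288 for 36 other pairs (median −0.21). The ranges overlapped. Deviations within a group cancel out, so part of this contrast is built in. Across genes, edgeR's common coefficient of biological variation was 0.305, and 0.156 once cultures were a term.

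The members and lists were chosen with earlier results of these data known. All members outside the Lce genes are named. Lce genes given in full are the 3 with the most counts and the 1 with the most in each subfamily. Lce3a, Lce3b, Lce1m, genes named for their culture ratio, and the 6 promoters printed were chosen after values were seen. For the 2 lists of other genes, the 2 with the most counts are given, except 1 that is not reported here.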

Additional observations from a re-analysis of the deposited data

How the results depend on the processing

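Counts of called members moved as follows. At 1 µM 3 members became 23 with DESeq2, 23 with the replicate block (20 called by both) and 0 when only the 2 groups were fitted, and 0 to 17 when a library or a culture was left out. Of all genes, the 29 called higher became 328, 390 and 0, and 0 to 92. At 1.5 µM, 39 members became 7 to 39, and 2364 of all genes 334 to 2619, when a library or a culture was left out. For 1.5 against 1 µM, 22 members became 34 with DESeq2, 8 without the low-count filter, 8 with only the 2 groups, 39 with the replicate block and 0 to 33 with one left out. The 679 of all genes became 1046, 400, 728 and 1737 in these settings, and 0 to 1112 with one left out. For 3 against 1.5 µM, 14 members became 26 with the replicate block and 2 to 17 with one left out, and 2601 of all genes 3784 and 196 to 3322. The 22 members that differed between cultures became 14 to 30, and the 4417 of all genes 2658 to 5860. The block moved no other count of members by more than 1.5 times; its counts for the 2 lists of other genes stand with them. Of the members first detected in DMSO, at 1 µM and at 1.5 µM (12, 23 and 5), a rule needing 1 library gave 20, 19 and 1, one needing all 3 libraries 11, 9 and 20, and 0.25 CPM 13, 25 and 2. Leaving out 1 library gave 8 to 24 at 1 µM and 5 to 20 at 1.5 µM. At 3 µM against DMSO, 870 of 880 values for single genes and settings kept their direction and call. The number of members at 50% or more by 1.5 µM was 18, and 12 to 23 in settings added after seeing the data.

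Scaling by library size alone, without TMM, moved the median of all genes from −0.03 to −0.23 at 3 µM and from −0.003 to −0.28 for 3 against 1.5 µM. The calls over all genes were then 3395 higher and 5401 lower at 3 µM (4574 and 4239 with TMM), and 1050 higher and 3859 lower for 3 against 1.5 µM (2601 and 1944).

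Changes of sign were seen only in values that were not called. For 3 against 1.5 µM, library size alone gave −0.14 for Casp14 and −0.012 for Lce1k, and the replicate block 0.0032 for Lce1m. With 1 library or culture left out, the values for this step ran from −0.30 to 0.66 for Casp14, −0.089 to 0.64 for Lce1f, −0.15 to 0.83 for Lce1h, −0.13 to 0.77 for Lce1i, −0.00068 to 1.06 for Lce1j, −0.16 to 0.60 for Lce1k, −0.0049 to 1.07 for Lor, −0.70 to 0.43 for Lce1m and −0.59 to 0.46 for Lce6a. For Tgm5 they ran from −1.09 to 1.06 at 1 µM and from −0.33 to 1.66 at 1.5 µM against DMSO. The cause was not tested. Depth limits the Lce genes most in DMSO, where no library held more than 18 counts for any of them.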
